A study of Oryza sativa with 18 samples.

Results

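The change from 3 h to 6 h of imbibition in embryos of germinating wild type rice (Oryza sativa, line 9522) was followed through 326 genes, out of 3149 genes listed anywhere in the series. They were chosen by the authors' differential expression calls: each gene was called different between the csa mutant and the wild type at both 3 h and 6 h. The table for 3 h lists 1049 genes, the one for 6 h lists 2388, and 327 identifiers are in both; 1 of them, LOC_Os09g28400, has a pair of entries in the 3 h table and was left out. Only the wild type columns were compared, 3 libraries at 6 h with 3 libraries at 3 h.

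The series holds 18 RNA-seq samples, 3 for each combination of genotype (wild type or csa mutant) and time (3 h, 6 h or 12 h of imbibition). Dehulled seeds of both genotypes were surface-sterilized and kept at 28 °C in diluted Murashige and Skoog solution, under 16 h of light and 8 h of dark. RNA came from 5 seeds per extraction, and the labels give the tissue as embryo although the extraction text speaks of seeds. Nothing in the labels says whether the 3 samples of a group came from separate plants or seed lots, so the p-values measure only the spread between these samples.

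Imbibition is the uptake of water that starts germination. A dry rice embryo holds messenger RNA stored during seed maturation, rich in transcripts of late embryogenesis abundant (LEA) proteins and dehydrins, which protect cells as they lose water, of small heat shock proteins, and of storage and oil body proteins. In the hours after wetting these stored transcripts are degraded while transcripts for wall loosening, nutrient transport and growth are made. CSA is a MYB transcription factor known in rice for its part in sugar partitioning to anthers.

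The way the genes were chosen limits what can be read. The libraries compared here also took part in the csa calls that chose them, and genes that csa did not change at both times are not covered. Of the 326 genes, 232 were higher in csa than in the wild type at both times, 49 were lower at both, 28 were higher at 3 h and lower at 6 h, and 17 were lower at 3 h and higher at 6 h. For these last 45 genes, here called the opposite-call genes, a change in the wild type is partly fixed by the choice, so their values are given with no test. The authors required an absolute log2 fold change of at least 1 and a false discovery rate (FDR) of at most 0.05. In the authors' deposited table LOC_Os06g04390 was nearest to the first limit at 3 h, at 1.00, and LOC_Os02g46610 at 6 h, also at 1.00. LOC_Os03g56010 was nearest to the second in the authors' deposited table at 3 h, with an FDR of 0.0451, and LOC_Os03g26480 at 6 h, with 0.0496. Genes just outside these limits were not analysed here.

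The totals of all reads per library are not used here, because the tables hold called genes only. Over the 326 genes the counts summed to 275691 to 296183 per library at 3 h and to 143332 to 170091 at 6 h, and the median gene's raw count at 6 h was 0.547 of that at 3 h. Whether this difference is one of sequencing depth or of RNA cannot be told apart. Each library was therefore scaled by the median ratio of its counts to the gene means, and every ratio is a relative log2 ratio, 6 h over 3 h, against the centre of these genes. A gene whose raw count did not move stands about 0.87 above that centre. In the text a gene rose or fell only where edgeR's quasi-likelihood test gave a Benjamini-Hochberg adjusted p below 0.05, and always relative to the centre. In bulk samples, fewer cells of a type and less RNA per cell cannot be told apart. At a mean of 10 counts or more 291 genes were tested. The 35 below it were all higher in csa at both times, and LOC_Os01g05510 and LOC_Os01g05530 had 0 counts in all 6 libraries.

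The label embryo was checked only against genes that csa changed at both times. No glutelin or prolamin gene, which would mark starchy endosperm, was among the 326, although the 3 h, 6 h and 12 h tables list 4, 2 and 1 such entries. The counts of those entries were not used here, so absence from the 326 does not give their level. Other markers set for endosperm or aleurone were present: 2 globulin genes, 1 alpha-amylase gene and 1 Bowman-Birk inhibitor gene. Globulins are also storage proteins of the embryo, so these 2 genes do not tell the tissues apart. Whether the samples held tissue other than embryo was not tested. Both oleosin genes and both group 1 LEA genes, which mark embryo and aleurone, were well counted at both times. Of 3 meristem genes looked for, the root quiescent centre homeobox gene LOC_Os01g63510 (QHB) was present and OSH1 and SCR1 were not among the 326. Libraries lay closer together at 3 h than at 6 h: the median distance of a library from its group was 0.251 to 0.296 log2 units at 3 h and 0.468 to 0.498 at 6 h. No pair of libraries held identical values.

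Among the 246 tested genes that csa shifted the same way at both times, 48 rose (19.5%) and 47 fell (19.1%) between 3 h and 6 h, and 151 passed in neither direction. After scaling, all 3 libraries at 6 h lay above all 3 at 3 h for 55 of them (22.4%) and below for 68 (27.6%). The genes higher in csa and those lower in csa did not divide alike. These same wild type libraries took part in the calls that set both classes. How far the split follows from the choice cannot be told, and it is given as a description. The genes higher in csa, 197 of the 291 tested, also weigh most in setting the centre. Of the 49 genes lower in csa at both times, 35 rose and 0 fell, with a median ratio of 1.18; the 0 held at an unadjusted edgeR p under 0.05 and by DESeq2, and 3 of the 49 had a ratio below 0. Each count of 0 given below for a gene group was likewise 0 at an unadjusted p under 0.05 and by DESeq2. Of the 197 tested genes higher in csa at both times, 13 rose and 47 fell, with a median of -0.26. The ratio over all 291 genes ran from -3.38 to 7.90 with a median of -0.03 and quartiles of -0.67 and 0.88. Without wild type 3 h replicate 1 the number that fell was 27, and without replicate 2 of that group it was 29. The 13 genes that rose among those higher in csa became 8, 5 and 6 without 3 h replicates 1, 2 and 3 in turn, and 8 without 6 h replicate 2.

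**Figure D1:**
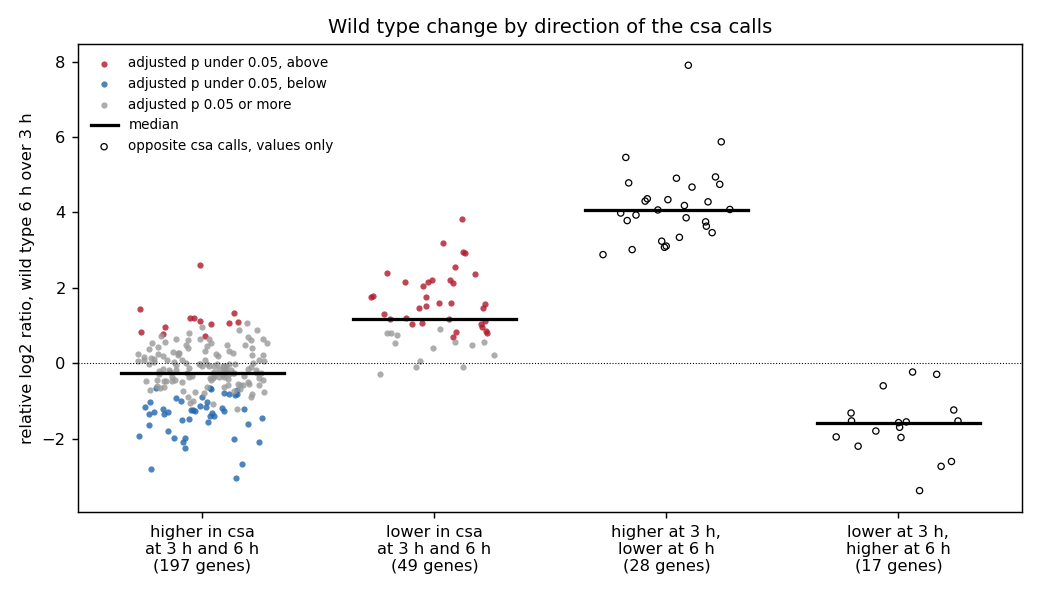
Relative log2 ratio of wild type 6 h over 3 h for each gene, 1 point per gene, in the 4 classes of csa calls, with the class median as a line. The medians are -0.26, 1.18, 4.07 and -1.58; the last pair are the opposite-call genes, whose direction is partly fixed by the choice.

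The LEA and dehydrin genes lay low at 6 h. Of 12 such genes 10 were tested, 6 fell, 0 rose and 4 passed in neither direction, with a median ratio of -0.75 against -0.03 over all tested genes. All 10 belong to the genes higher in csa, of which 47 of 197 fell and whose own median was -0.26. The largest fall was in a seed maturation protein gene, LOC_Os03g53620, with 1036, 1072 and 823 counts at 3 h and 214, 99 and 96 at 6 h. Every 6 h library was far under every 3 h library, and the relative ratio was -1.99 ± 0.36 (SE, n = 3 and 3; edgeR adjusted p = 2.4e-04). Its neighbour LOC_Os03g53610, also annotated as a seed maturation protein, fell by 1.18 ± 0.30 on the log2 scale (edgeR adjusted p = 0.0053).

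Dehydrins bind water and membranes when cells dry. The dehydrin LOC_Os01g12580 had 4940, 4757 and 3825 counts at 3 h and 1445, 755 and 958 at 6 h. The groups did not overlap, and it fell by 1.25 ± 0.22 (edgeR adjusted p = 0.0016). LOC_Os11g26570, similar to the maize dehydrin DHN1, had 8243, 7691 and 7369 counts and then 2708, 1919 and 2661, a ratio of -0.83 ± 0.05 (edgeR adjusted p = 0.0075). LOC_Os11g26780 (RAB16B), a dehydrin of the abscisic acid-responsive RAB16 group, had 8171, 8071 and 6274 counts and then 3451, 2190 and 2144. Its ratio of -0.67 ± 0.21 only just passed (edgeR adjusted p = 0.044) and was lost when any of 5 of the 6 libraries was left out, with an adjusted p of up to 0.15. LOC_Os11g26750 (RAB16D), of the same group, did not pass: 154, 167 and 138 counts at 3 h and 147, 137 and 59 at 6 h gave a ratio of 0.49 ± 0.41 (edgeR adjusted p = 0.28), with overlapping groups.

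The pair of group 1 LEA genes also differed from each other. LOC_Os06g21910 had 2549, 2284 and 1835 counts at 3 h and 495, 423 and 547 at 6 h, a ratio of -1.32 ± 0.10 with no overlap (edgeR adjusted p = 5.8e-04). LOC_Os08g23870 had 1564, 1474 and 1710 counts and then 1085, 980 and 1556, a ratio of 0.45 ± 0.18 that did not pass (edgeR adjusted p = 0.15). Whether the pair differ from each other was not tested. LOC_Os07g48830 (WSI76), named for its induction by water stress in rice and related to galactinol synthases, which start the synthesis of protective raffinose sugars, was not in the list. It had 670, 561 and 483 counts and then 151, 56 and 34, a ratio of -1.98 ± 0.59 (edgeR adjusted p = 0.0024) with all 6 h libraries under all 3 h libraries.

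Small heat shock proteins keep unfolding proteins soluble, and their transcripts accumulate in maturing seeds without heat. Of 8 heat shock and chaperone genes 5 fell, 0 rose and 3 passed in neither direction, and the median ratio was -1.24. All 8 were higher in csa at both times, a class in which 47 of 197 fell. LOC_Os02g48140 (HSP17.8) had 110, 84 and 81 counts at 3 h and 9, 8 and 4 at 6 h, a ratio of -2.81 ± 0.38 (edgeR adjusted p = 4.3e-05). LOC_Os01g04360 (HSP16.9C) had 496, 446 and 468 counts and then 93, 25 and 7. The 6 h libraries of HSP16.9C were widely spread although all lay under the 3 h libraries, and the ratio was -2.67 ± 0.84 (edgeR adjusted p = 0.0027). LOC_Os01g04340 (HSP16.6) fell by 1.79 ± 0.35, from 145, 123 and 145 counts to 29, 23 and 13 (edgeR adjusted p = 7.2e-04).

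HSP16.9C and HSP16.6 lie in a run of neighbouring small heat shock genes whose other tested members did not pass. LOC_Os01g04370 (HSP16.9A) was the most abundant in counts, with 11839, 10780 and 10968 at 3 h and 6238, 4930 and 2587 at 6 h. Its groups overlapped after scaling and its ratio was -0.40 ± 0.36 (edgeR adjusted p = 0.32). LOC_Os01g04380 stood at -0.71 ± 0.53 with 1839, 1234 and 359 counts at 6 h (edgeR adjusted p = 0.21). These genes are closely similar in sequence and how shared reads were counted is not known, so the split of counts among them is uncertain. LOC_Os04g01740, similar to the large chaperone HSP82, fell by 1.56 ± 0.51, from 1724, 1495 and 1779 counts to 449, 356 and 106 (edgeR adjusted p = 0.012). Replicate 3 at 6 h was the lowest library for each of these 6 heat shock genes: the list's median deviation from the gene means was -0.06, -0.25 and -1.87 in the 6 h libraries, and without it the list's median ratio was -0.86. LOC_Os02g13800 (HSFC2A), a heat shock transcription factor, stood at 0.49 ± 0.27 with 289, 386 and 335 counts and then 219, 198 and 374 (edgeR adjusted p = 0.16).

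The AP2/ERF family of transcription factors includes the drought-responsive DREB factors. Of 5 AP2/ERF, NAC and WRKY genes 3 fell, 0 rose and 2 passed in neither direction, with a median of -1.51. All 5 were higher in csa at both times, a class in which 47 of 197 fell. The lowest ratio of any gene with the same csa direction at both times was that of LOC_Os02g42585, an ERF domain gene, with 26, 38 and 23 counts at 3 h and 4, 1 and 1 at 6 h. Its ratio of -3.04 ± 0.69 rests on 6 counts over the 6 h group (edgeR adjusted p = 7.5e-04). LOC_Os08g45110 (DREB2C) had 359, 318 and 186 counts and then 81, 23 and 23, a ratio of -1.93 ± 0.64 (edgeR adjusted p = 0.0030). LOC_Os06g07030, similar to the AP2 factor TINY, was counted far more often, with 5861, 6479 and 4535 counts and then 1737, 696 and 879. It fell by 1.51 ± 0.37 (edgeR adjusted p = 0.0015), and in all 3 of these genes the groups did not overlap. Another ERF domain gene, LOC_Os09g39850, stood above the centre at 0.49 ± 0.15 and did not pass, with 90, 85 and 64 counts and then 75, 52 and 58 (edgeR adjusted p = 0.13).

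**Figure D2:**
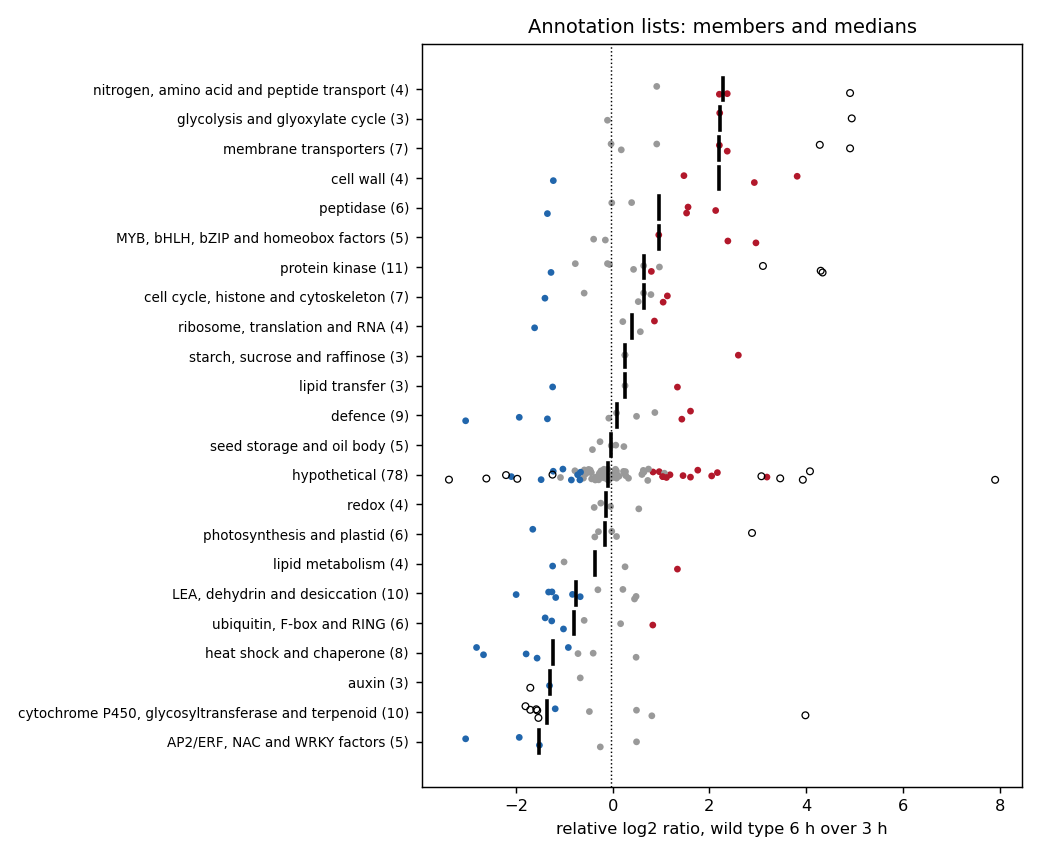
Median relative log2 ratio of each gene list with the single genes as points, log2 units, wild type 6 h over 3 h. The heat shock list has its median at -1.24, the LEA and dehydrin list at -0.75 and the storage and oil body list at -0.03, while the cell wall list lies at 2.20.

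Of 5 storage and oil body genes, all tested, 0 rose and 0 fell, and their median ratio was -0.03. All 5 were higher in csa at both times, a class in which 47 of 197 fell. Nothing particular to storage genes is read from the count. Globulins are storage proteins of the embryo and aleurone. LOC_Os03g46100 (Globulin 1) had 22692, 23352 and 36404 counts at 3 h and 19187, 13212 and 22479 at 6 h, with overlapping groups and a ratio of 0.23 ± 0.31. The oil body protein gene LOC_Os03g49190 (OLE18) had 6087, 5375 and 7013 counts and then 3715, 3024 and 4018, a ratio of 0.07 ± 0.16. The lower oleosin, LOC_Os01g45624, stood at -0.42 ± 0.11 with 141, 166 and 130 counts and then 59, 50 and 72. Whether the storage list differs from the LEA list was not tested.

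Of 4 redox genes 0 rose and 0 fell. All 4 were higher in csa at both times, a class in which 47 of 197 fell. LOC_Os07g44440, similar to 1-Cys peroxiredoxin, an antioxidant enzyme of dormant cereal embryos, had 83, 60 and 70 counts and then 32, 14 and 48, a ratio of -0.38 ± 0.40. The lipid transfer protein genes, whose small secreted products bind lipids, moved in both directions. LOC_Os08g03690 fell by 1.24 ± 0.57, from 5327, 4026 and 3291 counts to 1842, 546 and 627 (edgeR adjusted p = 0.021), a call lost without 3 h replicate 1 or 2 or 6 h replicate 2, with an adjusted p of up to 0.094. LOC_Os05g47730 rose by 1.34 ± 0.45, from 61, 47 and 31 counts to 83, 71 and 33 (edgeR adjusted p = 0.014), although its groups overlapped and the call was lost without 3 h replicate 2 or 3 or 6 h replicate 2, with an adjusted p of up to 0.063.

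Genes of cell wall loosening were among those that stood highest. Of 4 cell wall genes 3 rose and 1 fell, with a median ratio of 2.20. The 3 that rose all belong to the genes lower in csa at both times, a class in which 35 of 49 rose. Nothing particular to wall genes is read from the count. Expansins loosen the wall so that cells can enlarge. LOC_Os10g40720 (EXPB3) had 31, 29 and 10 counts at 3 h and 98, 164 and 269 at 6 h. Its relative ratio of 3.81 ± 0.53 was the highest among the 246 genes (edgeR adjusted p = 2.3e-05). Its neighbour LOC_Os10g40730 (EXPB4) had 338, 275 and 226 counts and then 1056, 1341 and 1009, a ratio of 2.93 ± 0.30 (edgeR adjusted p = 6.9e-06). For both expansins the raw count itself was higher in every 6 h library than in any 3 h library. LOC_Os01g41120, annotated as a leucine-rich repeat extensin, rose by 1.47 ± 0.36, from 497, 369 and 478 counts to 539, 834 and 624 (edgeR adjusted p = 0.0018). LOC_Os02g33380 (PMEI8), a pectinesterase inhibitor gene, fell by 1.22 ± 0.58, from 42, 32 and 34 counts to 15, 2 and 10, a call lost without any of 5 of the 6 libraries (edgeR adjusted p = 0.049, up to 0.13).

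Of 4 tested genes for nitrogen, amino acid and peptide transport, 2 rose, 0 fell, 1 passed in neither direction and 1 was an opposite-call gene. The 3 that could be read were all lower in csa at both times, a class in which 35 of 49 rose, and nothing particular to transporters is read from the count. LOC_Os04g44320 (YSL12), of the yellow stripe-like family that carries metal-nicotianamine complexes, had 1501, 1196 and 1670 counts at 3 h and 2769, 4275 and 3838 at 6 h. All 6 h counts were above all 3 h counts before any scaling, and the ratio was 2.20 ± 0.34 (edgeR adjusted p = 8.1e-05). LOC_Os02g46860, similar to oligopeptide transporter 4, had 135, 116 and 164 counts and then 319, 535 and 281, a ratio of 2.37 ± 0.48 (edgeR adjusted p = 2.3e-04). LOC_Os04g40410, annotated as a nitrate transporter-activating protein, had 103, 56 and 39 counts and then 29, 53 and 123, and did not pass at 0.91 (edgeR adjusted p = 0.13).

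Among developmental transcription factors, 3 of 5 MYB, bHLH, bZIP and homeobox genes rose (2 by DESeq2), 0 fell, and the median ratio was 0.95. Of the 3 that rose, 2 belong to the genes lower in csa at both times, a class in which 35 of 49 rose. LOC_Os01g63510 (QHB, also listed as WOX9 and WOX5) encodes a WUSCHEL-related homeobox protein known from the quiescent centre of the rice root. It had 64, 75 and 128 counts at 3 h and 344, 467 and 317 at 6 h, a ratio of 2.96 ± 0.49 with no overlap (edgeR adjusted p = 4.2e-05). LOC_Os05g48010, a MYB-related factor, rose by 2.38 ± 0.46, from 84, 71 and 126 counts to 158, 267 and 386 (edgeR adjusted p = 2.7e-04). The bZIP gene LOC_Os03g56010 had only 16, 18 and 13 counts and then 14, 18 and 17, and its call at 0.95 ± 0.24 (edgeR adjusted p = 0.049) was lost without any of 5 of the 6 libraries. Outside the list, the C2H2 zinc finger gene LOC_Os01g62130 had 48, 71 and 59 counts and then 152, 165 and 257, a rise of 2.54 ± 0.26 (edgeR adjusted p = 2.0e-05).

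**Figure D3:**
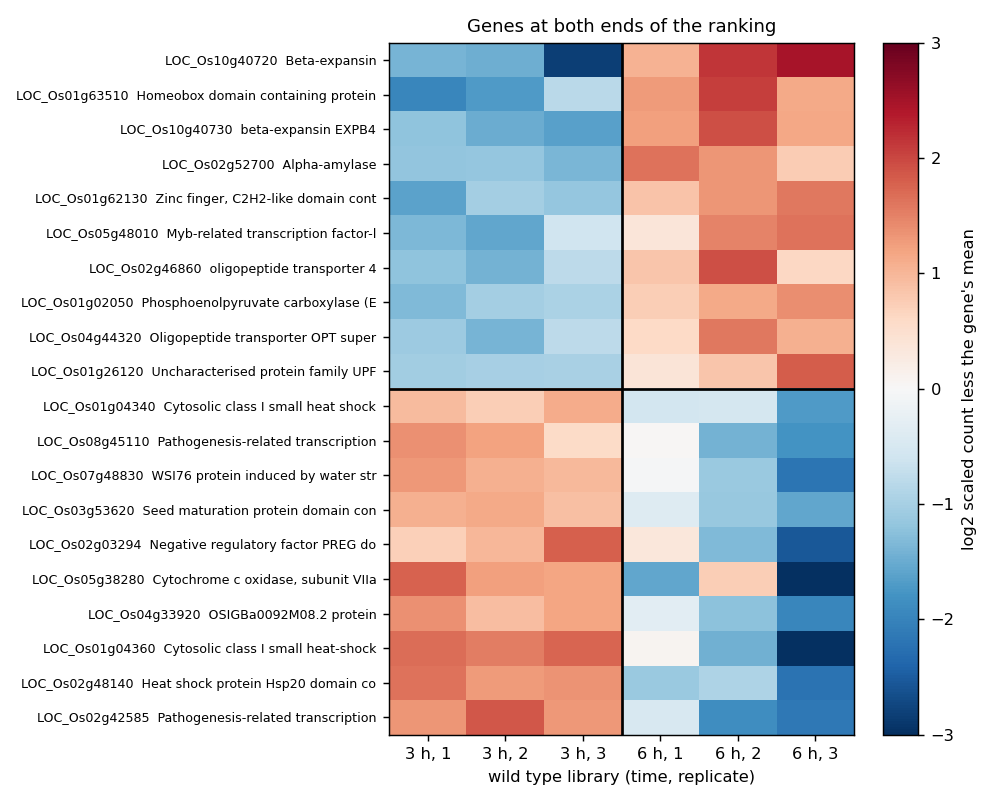
Heat map of the 10 lowest and 10 highest genes by relative log2 ratio among annotated genes with the same csa direction at both times. Each wild type library is 1 column, and colour gives the log2 scaled count less the gene's mean. Genes were shown only if they passed the test and their 3 h and 6 h libraries did not overlap after scaling.

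Genes of reserve use were few. LOC_Os02g52700, similar to alpha-amylase, the enzyme that opens starch breakdown in germinating cereals, had 9, 9 and 7 counts at 3 h and 38, 24 and 21 at 6 h. It rose by 2.60 ± 0.25 with no overlap (edgeR adjusted p = 1.2e-04), and it was higher, not lower, in csa at both times. LOC_Os01g02050, similar to phosphoenolpyruvate carboxylase, which makes oxaloacetate for the citric acid cycle, rose by 2.21 ± 0.22, from 35, 43 and 41 counts to 84, 87 and 135 (edgeR adjusted p = 4.1e-05). Of 6 genes caught by peptidase terms 3 rose, 1 fell and 2 passed in neither direction. The 3 that rose were all lower in csa at both times, a class in which 35 of 49 rose. LOC_Os03g55350, similar to subtilisin-like protease, was the most abundant of the 3 in counts, with 11705, 11435 and 12084 and then 15969, 18677 and 22173, a rise of 1.56 ± 0.18 (edgeR adjusted p = 1.7e-04). The aspartic protease gene LOC_Os01g04710 rose by 2.13 ± 0.26, from 399, 361 and 432 counts to 930, 1059 and 834 (edgeR adjusted p = 4.8e-05). The 1 that fell is an inhibitor and not a protease, LOC_Os01g03680 of the Bowman-Birk type, from 775, 681 and 428 counts to 183, 61 and 177 (-1.35 ± 0.39, edgeR adjusted p = 0.0060).

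Chromatin and cell division genes were few. Of 7 genes caught by cell cycle, histone and cytoskeleton terms, 2 rose, 1 fell and 4 passed in neither direction. Of the 7, 5 were higher in csa at both times and 2 were lower. Over the 246 genes 19.5% rose and 19.1% fell, and nothing particular to the 7 is read from the counts. The histone H4 gene LOC_Os03g02780 fell by 1.40 ± 0.36, from 1187, 753 and 696 counts to 259, 100 and 206 (edgeR adjusted p = 0.0030). The histone H3 gene LOC_Os06g06460 rose by 1.13 ± 0.41 on low counts, 17, 14 and 18 and then 12, 16 and 32 (edgeR adjusted p = 0.037), a call lost without any of 5 of the 6 libraries, with an adjusted p of up to 0.20. Histone genes have near-identical copies, so their counts are uncertain. LOC_Os01g01570, similar to kinesin heavy chain, rose by 1.04 ± 0.14, from 275, 247 and 287 counts to 292, 261 and 373 (edgeR adjusted p = 0.0036).

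The remaining groups were small or mixed. Over the 246 genes 19.5% rose and 19.1% fell. Of 11 genes caught by kinase terms, 1 rose, 1 fell, 6 passed in neither direction and 3 were opposite-call genes. LOC_Os04g39650, annotated as a serine/threonine kinase, had 67, 61 and 37 counts and then 23, 8 and 7, a ratio of -1.27 (edgeR adjusted p = 0.027). That call was lost without 3 h replicate 1 or 2 or 6 h replicate 2 or 3, with an adjusted p of up to 0.096. Of 6 genes caught by ubiquitin and RING terms 1 rose and 3 fell; 1 of those that fell, LOC_Os10g38940, is a carotenoid beta-ring hydroxylase caught by its name, and its call was lost without 3 h replicate 1 or 2 or 6 h replicate 2, with an adjusted p of up to 0.092. Of 11 cytochrome P450, glycosyltransferase and terpenoid genes 10 were tested, 1 fell, 0 rose and 6 were opposite-call genes. Of 6 photosynthesis and plastid genes 1 fell, 0 rose, 4 passed in neither direction and 1 was an opposite-call gene, LOC_Os03g21560 of photosystem II, at 2.88. The gene that fell, LOC_Os07g34570, of thiazole synthesis for vitamin B1, had 3310, 3063 and 2013 counts and then 891, 238 and 384, a ratio of -1.65 ± 0.53 (edgeR adjusted p = 0.0036). In the ribosome and RNA group of 4 the 2 calls were for genes of other function, LOC_Os01g06740, a ribosome-inactivating protein that rose, and LOC_Os09g20440, a succinate dehydrogenase subunit that fell, at 0.86 and -1.61. The first call was lost without 3 h replicate 1 or 2 or 6 h replicate 2, with an adjusted p of up to 0.14, and the second was kept without each library.

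Hormone genes were too few for a group. No gene was caught by the abscisic acid terms, and neither of 2 gibberellin genes reached the count minimum. The ethylene receptor gene LOC_Os07g15540 (ETR4) had 894, 866 and 650 counts and then 292, 201 and 259, a ratio of -0.82 ± 0.11 (edgeR adjusted p = 0.012) that was lost without 3 h replicate 1 or 2, with an adjusted p of up to 0.077. The dormancy and auxin-associated gene LOC_Os09g26620 fell by 1.30, from 215, 251 and 128 counts to 58, 42 and 30 (edgeR adjusted p = 0.0057). Of 11 genes caught by defence terms 9 were tested, 2 rose and 3 fell, and 2 of those that fell are the ERF factors named above. Over the 246 genes 19.5% rose and 19.1% fell. The class II chitinase gene LOC_Os05g04690, an enzyme that cuts fungal walls, rose by 1.43 ± 0.38 on 14, 6 and 7 counts and then 13, 11 and 16 (edgeR adjusted p = 0.018), a call lost without 3 h replicate 2 or 3 or 6 h replicate 3, with an adjusted p of up to 0.062.

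The 28 genes higher in csa at 3 h and lower at 6 h all stood above the centre in the wild type, at 2.88 to 7.90 with a median of 4.07, and their libraries did not overlap for any of the 28. Both the direction and the lack of overlap are partly fixed by the choice and are not read as a result. Among the 246 same-direction genes the 6 h libraries lay wholly above for 55. LOC_Os02g56920, similar to CER1, which in Arabidopsis makes the alkanes of cuticular wax, had 28, 45 and 31 counts at 3 h and 1013, 1206 and 1067 at 6 h, a ratio of 5.87 ± 0.29. LOC_Os01g67630, similar to the peptide transporter PTR2, had 41, 65 and 51 counts and then 800, 1041 and 673, a ratio of 4.91 ± 0.37. LOC_Os01g55940 (GH3.2), of the family that conjugates auxin to amino acids, had 414, 364 and 329 counts and then 3934, 5307 and 2765, a ratio of 4.36 ± 0.39. These 3 genes were higher in raw count in every 6 h library by several-fold.

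Others of the 28, named after their values were seen, are of varied function. LOC_Os06g22960 (TIP2;2), a water channel of the vacuole membrane, had 468, 507 and 355 counts and then 2038, 2604 and 2605, a ratio of 3.34 ± 0.23. LOC_Os07g01810 (KCO2), of the potassium channels, had 8, 6 and 6 counts and then 54, 59 and 102, a ratio of 4.28 ± 0.28. LOC_Os11g48020, similar to sterol 4-alpha-methyl-oxidase of sterol synthesis, went from 56, 43 and 48 counts to 340, 365 and 371 (3.75 ± 0.18). The receptor-like kinase gene LOC_Os02g53720 (ER2), similar to ERECTA, which in Arabidopsis shapes organ growth, had 13, 9 and 10 counts and then 78, 103 and 109 (4.06 ± 0.26). The highest ratio of all, 7.90 for the membrane protein gene LOC_Os01g36580, rests on 0, 0 and 1 count at 3 h against 31, 56 and 50 at 6 h, so its size is poorly fixed.

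The 17 genes lower in csa at 3 h and higher at 6 h all stood below the centre, at -3.38 to -0.24 with a median of -1.58, and 15 of them had no overlap. Here too direction and lack of overlap are partly fixed by the choice. LOC_Os10g40360, with a proline oxidase domain, the enzyme that starts proline breakdown, had 1062, 700 and 825 counts at 3 h and 108, 57 and 50 at 6 h, a ratio of -2.74 ± 0.36. Enzymes that attach glucose to hormones and pigments were among the 17. LOC_Os09g34230, similar to an indole-3-acetate glucosyltransferase, which inactivates auxin, had 14776, 10555 and 11955 counts and then 2671, 2023 and 1567, a ratio of -1.70 ± 0.27. LOC_Os04g46980, similar to a cis-zeatin O-glucosyltransferase, which stores cytokinin, had 237, 172 and 165 counts and then 26, 22 and 44, a ratio of -1.80 ± 0.28. LOC_Os06g11260 (OPR3), similar to the 12-oxo-phytodienoic acid reductase of jasmonate synthesis, overlapped between the times at -0.30 ± 0.15.

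Ratios of counts within a library do not depend on its depth or scaling. For every 100 counts of RAB16B there were 4.14, 3.41 and 3.60 counts of EXPB4 in the 3 h libraries and 30.6, 61.2 and 47.1 in the 6 h libraries. For every 100 counts of the dehydrin LOC_Os01g12580 there were 30.4, 25.1 and 43.7 counts of YSL12 at 3 h and 192, 566 and 401 at 6 h. In both pairs the lowest 6 h library was above the highest 3 h library. The pairs were chosen after their values were seen.

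The csa libraries, scaled in the same way among themselves, moved in the same sense for most called genes. Of the 48 genes that rose in the wild type 46 had a csa ratio above 0, and for 23 the csa libraries did not overlap. Of the 47 that fell 43 had a csa ratio below 0, again with 23 not overlapping. Over all 246 genes the csa libraries at 6 h lay wholly above those at 3 h for 33 and wholly below for 54. The opposite-call genes are left out of the 246, so the shared direction is partly fixed by the choice. Over the 246 genes Pearson's r between the wild type and csa ratios was 0.71, as a description across genes that share the same 6 libraries per genotype and the same choice. Within the genes higher in csa it was 0.47 and within those lower in csa 0.75. The small heat shock genes that fell in the wild type stood nearer the centre in csa, with wide spread and overlapping csa libraries. Their csa ratios were -0.30 ± 0.67 for LOC_Os02g48140, -0.22 ± 0.49 for LOC_Os01g04360 and -0.12 ± 0.58 for LOC_Os01g04340. LOC_Os01g04370, which had not passed in the wild type at -0.40, stood at -0.35 ± 0.35 in csa. LOC_Os01g04380, which had not passed either, stood at 0.07 ± 0.36 in csa. The LEA and dehydrin list had a csa median of -0.72, beside -0.75 in the wild type. Whether any of these ratios differ between the genotypes was not tested.

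**Figure D4:**
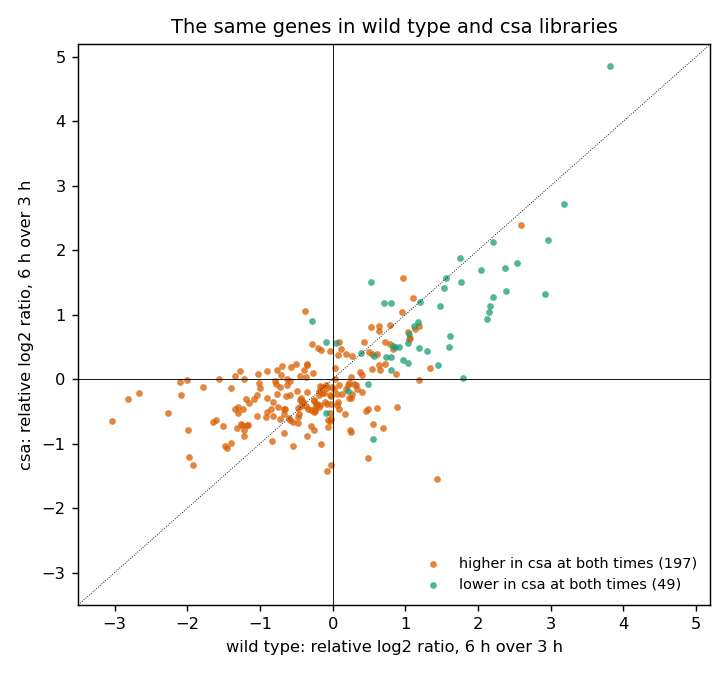
Relative log2 ratio of 6 h over 3 h in the wild type (horizontal) and in csa (vertical) for the 246 genes with the same csa direction at both times, 1 point per gene, dotted line for equal values. Pearson's r was 0.71 over all points, 0.47 within the genes higher in csa and 0.75 within those lower in csa.

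For 17 of the 326 genes the 12 h table gives a further time in the wild type, as raw counts from a table with its own depth. Replicate 3 at 12 h carries csa in its genotype field against its title, and was taken as wild type by title. HSP16.9C (LOC_Os01g04360), at 93, 25 and 7 counts at 6 h, had 2, 5 and 8 at 12 h. The group 1 LEA gene LOC_Os08g23870, which had not passed between 3 h and 6 h, had 301, 167 and 225 counts at 12 h, under all 6 earlier libraries. The aspartic protease gene LOC_Os01g04710 had 2312, 2412 and 2112 counts at 12 h, more than in any earlier library. The lipid transfer gene LOC_Os08g03690 had 5904, 7157 and 2098 counts at 12 h, all above the 6 h counts, with the library of uncertain label the lowest.

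**Figure D5:**
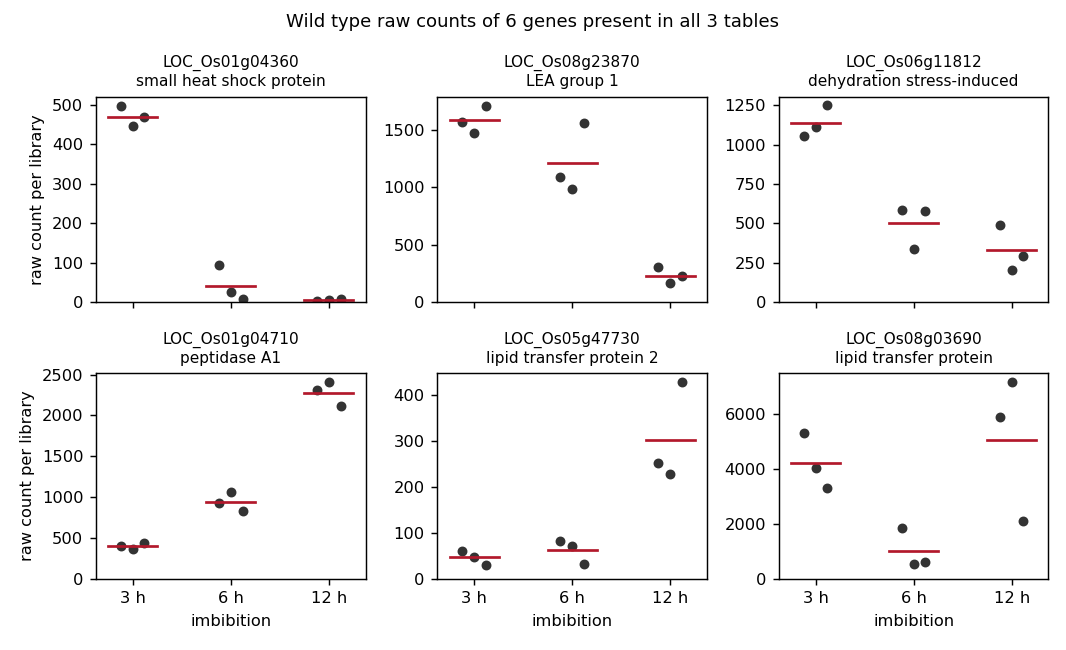
Raw counts per wild type library at 3 h, 6 h and 12 h for 6 of the 17 genes present in all 3 tables, points for libraries and lines for group means. Library depth is unknown at each time; HSP16.9C goes from 446 to 496 counts at 3 h to 2 to 8 at 12 h.

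Of the 326 genes 83 lie on chromosome 1, among them 28 of the 49 genes lower in csa at both times and 46 of the 232 higher. The share of chromosome 1 among all genes was not counted. The median ratio of the 73 tested genes on chromosome 1 was 0.27, beside -0.03 over all 291. Medians of the other chromosomes ran from -0.779 (chromosome 7, 15 genes) to 0.485 (chromosome 11, 11 genes). Of the 96 genes with no annotation or a hypothetical one, 78 were tested, at a median of -0.10. Among the 78, 12 rose, 8 fell, 48 passed in neither direction and 10 were opposite-call genes. Over the 246 genes 19.5% rose and 19.1% fell, and nothing particular to unannotated genes is read from the counts.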

How the data were processed

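The authors deposited 3 tables of called genes, each holding per-sample raw counts, a log2 fold change and a p-value with its FDR, per the file headers. DESeq2 is named in the submitters' processing notes; aligner, counter, strand setting and genome build: not given in the sources used here. All sample columns were matched by name (0 unmatched). Counts of the shared genes were scaled by median-of-ratios factors, 1.26 to 1.40 at 3 h and 0.625 to 0.814 at 6 h. Genes with a mean of at least 10 counts were tested with edgeR 4.0.16 (R 4.3.3), quasi-likelihood, Benjamini-Hochberg over 291 genes, threshold 0.05. The reported ratio is the log2 ratio of mean scaled counts, with a standard error from the replicates. On simulated counts for this comparison (291 genes, 60 changed), 66.7% of genes changed by log2 1 and 100% by log2 2 were recovered, 2 unchanged genes were called and 0 had the wrong sign.

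Named genes are the ends of the ratio among annotated, called, non-overlapping genes, the 2 ends of each list, genes in all 3 tables, and a panel of sugar and hormone genes. The 10 highest and lowest genes with the same csa direction, and further genes of each function, were named after their values were seen. Lists are search terms on the annotation text; members and lists were chosen with earlier results of these data known. Terms also caught others, such as a succinate dehydrogenase subunit under ribosome. RefSeq entries (assembly ASM3414082v1), used for names only, matched 262 of 326 genes. Alternatives were other scalings (TMM, totals, centre from same-direction genes), other count minimums, DESeq2 1.42.0, a fit with all 12 libraries, a replicate block and leaving out each library.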

Additional observations from a re-analysis of the deposited data

Results flagged for a closer look

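In 8 tested genes the wild type libraries moved one way between 3 h and 6 h and the csa libraries the other. These genes had no overlap between the times in either genotype after scaling, and the difference was not tested. Over all 291 tested genes the wild type 6 h libraries lay wholly above for 83 and wholly below for 83. In csa they lay wholly above for 55 and wholly below for 54. Values are relative log2 ratios, 6 h over 3 h. Of the 8, 6 are opposite-call genes, chosen by that very difference. Among them LOC_Os04g46980, similar to a cis-zeatin O-glucosyltransferase, stood at -1.80 in the wild type and 0.81 in csa. LOC_Os09g34230, similar to an indole-3-acetate glucosyltransferase, stood at -1.70 and 0.63. The glucosyltransferase genes LOC_Os01g64910 and LOC_Os01g45110 stood at -1.58 and -1.56 in the wild type and both at 1.04 in csa. LOC_Os09g20220, similar to a glutathione transferase, stood at -0.60 and 1.56, and the hypothetical gene LOC_Os09g11440 at -1.97 and 0.75. The other 2 were higher in csa at both times: the chitinase gene LOC_Os05g04690, at 1.43 in the wild type and -1.55 in csa, and the hypothetical gene LOC_Os05g08420, at 0.60 and -0.44. The chitinase call rests on low counts and was lost without 3 h replicate 2 or 3 or 6 h replicate 3. LOC_Os05g08420 did not pass in the wild type.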

How the results depend on the processing

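Over the alternatives 62 to 104 genes passed, beside 95, and 57 of the 95 passed without any 1 library. Leaving out each library in turn gave 33 to 52 genes that rose (48 with all), 27 to 52 that fell (47 with all), and 5 to 15 that rose among genes higher in csa (13 with all). DESeq2 gave 89 calls, all among the 95. A minimum of 50 counts gave 76 calls. The share of calls that rose was 47.3% to 56.7% under other scalings, and 50.5% here. Deviations of same-numbered libraries correlated at 0.12, -0.08 and -0.01, and those of differently numbered libraries at -0.15 to 0.18. Whether the numbers pair the samples cannot be told from these values. With the replicate block 80 genes passed, and 8 rose among those higher in csa. Of 957 values of 87 named genes under alternatives, 886 kept direction and side of the threshold, 51 no longer passed, 6 newly passed, 14 untested ones moved beyond the replicate spread and 0 reversed. The defence median of 0.08 turned to -0.08 without 3 h replicate 3 and -0.31 without 6 h replicate 3. Medians of the storage, redox and hypothetical lists also change sign, near 0. Depth per library is unknown, and low counts limit the ERF, chitinase and histone H3 values.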
